A study of Mus musculus with 8 samples.

Results

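The genes described here were grouped as genes of the primary (azurophil) granules of neutrophils. MPO, ELA2, PRTN3 and CTSG encode enzymes of the granule, SERPINB1A and CST7 encode protease inhibitors, and MS4A3 and NKG7 encode membrane proteins. They are the 8 rows of the deposited gene table named MPO, ELA2, PRTN3, CTSG, MS4A3, SERPINB1A, CST7 and NKG7, out of 18132 rows in all. ELA2 is that table's name for neutrophil elastase, now Elane. All 8 members were detected on at least 2 of the 8 arrays and entered the tests.

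The study measured RNA from progenitors sorted out of C57BL/6 mouse bone marrow with Illumina MouseRef-8 v2.0 BeadChips, in 4 groups of 2 arrays. All-lymphoid progenitors (ALP) were sorted as lineage-negative cells that were negative for Ly6D and B220 and positive for c-kit, Flk2 and the IL-7 receptor. Common myeloid progenitors (CMP) were sorted as lineage-negative cells high for c-kit, negative for Sca-1, CD11c, CD16, CD32 and CD115, and positive for CD34 and Flk2. Each cell type came from mice labelled IRF-8 wild type or IRF-8 knockout. The kind of IRF-8 allele, the age of the animals and whether arrays of 1 group came from separate animals were not stated in the material used here, and p-values therefore cover only the spread of these samples, which may be technical. RNA was amplified from small numbers of sorted cells before hybridization.

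IRF-8 belongs to the interferon regulatory factors, a family of transcription factors, and is needed for monocyte and dendritic cell development and known to hold back granulocyte production in mice. Primary granules are the first to form during neutrophil development, at the promyelocyte stage, and transcription of their cargo begins in progenitors and stops before the cells mature. Their serine proteases are made as inactive precursors, are activated by the dipeptidase cathepsin C, and are stored in the granule until it fuses with a phagosome or the cell surface.

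The Irf8 probe differed between the genotypes in opposite directions in the 2 cell types, and neither difference passed. Its log2 level was 10.97 and 10.89 on the wild-type ALP arrays, 11.4 and 11.17 on those of knockout ALP, 11.06 and 10.96 for wild-type CMP and 10.83 and 10.81 for knockout CMP (adjusted p = 0.596 in ALP and 0.967 in CMP, limma). The position of this probe relative to the changed part of the gene is not given, so its level checks nothing about the genotype labels. The transcript for the IL-7 receptor, Il7r, stood at 10.28 to 11.19 on the 4 ALP arrays and at 5.01 to 6.52 on the 4 CMP arrays, of which 1 detected it. Flt3, the transcript of Flk2, and Cd34 were detected on all 8 arrays, and Kit was not tested. Csf1r and Itgax, the transcripts of CD115 and CD11c, which were used to deplete the CMP, were nevertheless detected on all 4 CMP arrays. They stood there at 7.07 to 8.18 and 6.24 to 7.41. Csf1r was 2.41 higher in wild-type CMP than in wild-type ALP (adjusted p = 0.0219, limma). Ly6a, the transcript of Sca-1, was detected on 1 array of each CMP group. Ly6d, whose surface product was used to deplete the ALP, was detected on all 4 ALP arrays at 6.92 to 7.73 and on none of the CMP arrays. Between 11122 and 12749 of 25697 probes were detected per array. The wild-type ALP arrays were the least alike of any group, with a correlation of 0.848 over the features tested against 0.941 to 0.952 in the other groups, and a median SD of 0.375 against 0.211 to 0.258.

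The promoters of the 4 enzyme genes are shown because their group means had the same order over the 4 groups. Each is the 200 bases before the annotated start in RefSeq (GRCm38.p6), read 5′ to 3′ on the gene's strand. RefSeq held a promoter for 7 of the 8 members, SERPINB1A being the exception. Capitals mark matches on either strand to GAGGAA, the core of a PU.1 box, or to TGTGGT, the core of a RUNX site (ACCACA on the other strand). MPO lies at chr11:87793584-87793783 on the + strand, ELA2 at chr10:79886112-79886311 on the + strand, PRTN3 at chr10:79879467-79879666 on the + strand and CTSG at chr14:56102575-56102774 on the - strand.
MPO: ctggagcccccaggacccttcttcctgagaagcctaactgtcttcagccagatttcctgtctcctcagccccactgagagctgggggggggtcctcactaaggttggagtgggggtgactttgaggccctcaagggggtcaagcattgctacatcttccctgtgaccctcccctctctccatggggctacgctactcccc
ELA2: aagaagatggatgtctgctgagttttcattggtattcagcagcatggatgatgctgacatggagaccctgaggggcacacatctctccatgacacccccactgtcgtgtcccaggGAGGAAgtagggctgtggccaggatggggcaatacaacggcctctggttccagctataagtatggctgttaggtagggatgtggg
PRTN3: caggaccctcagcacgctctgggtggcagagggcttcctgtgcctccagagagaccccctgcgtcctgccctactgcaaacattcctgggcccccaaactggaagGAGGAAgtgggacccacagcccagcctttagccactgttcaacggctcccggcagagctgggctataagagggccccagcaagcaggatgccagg
CTSG: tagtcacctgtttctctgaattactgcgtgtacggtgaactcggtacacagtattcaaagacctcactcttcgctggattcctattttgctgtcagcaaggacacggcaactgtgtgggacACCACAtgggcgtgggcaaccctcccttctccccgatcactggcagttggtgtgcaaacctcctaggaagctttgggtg
ELA2 held GAGGAA from position -85 to -80 relative to the start and PRTN3 held it from -95 to -90, while 18.9% of 27025 promoter windows of this length held it. CTSG held the RUNX core from -79 to -74, and so did CST7 from -188 to -183 and NKG7 from -83 to -78, against 11.3% of all windows. None of the 7 windows held TTGCNNAA, a C/EBP core pattern (7.5% of all windows), or GAAANNGAA, an interferon-stimulated element core (5.6%). None held TATAAA, the element bound by the TATA-binding protein, either (10.6%). MPO and MS4A3 held none of the 5 patterns. The same PU.1 letters thus occurred in the promoters of PRTN3 and ELA2, which are neighbouring genes, and no pattern was shared by all 4 enzymes.

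**Figure D1:**
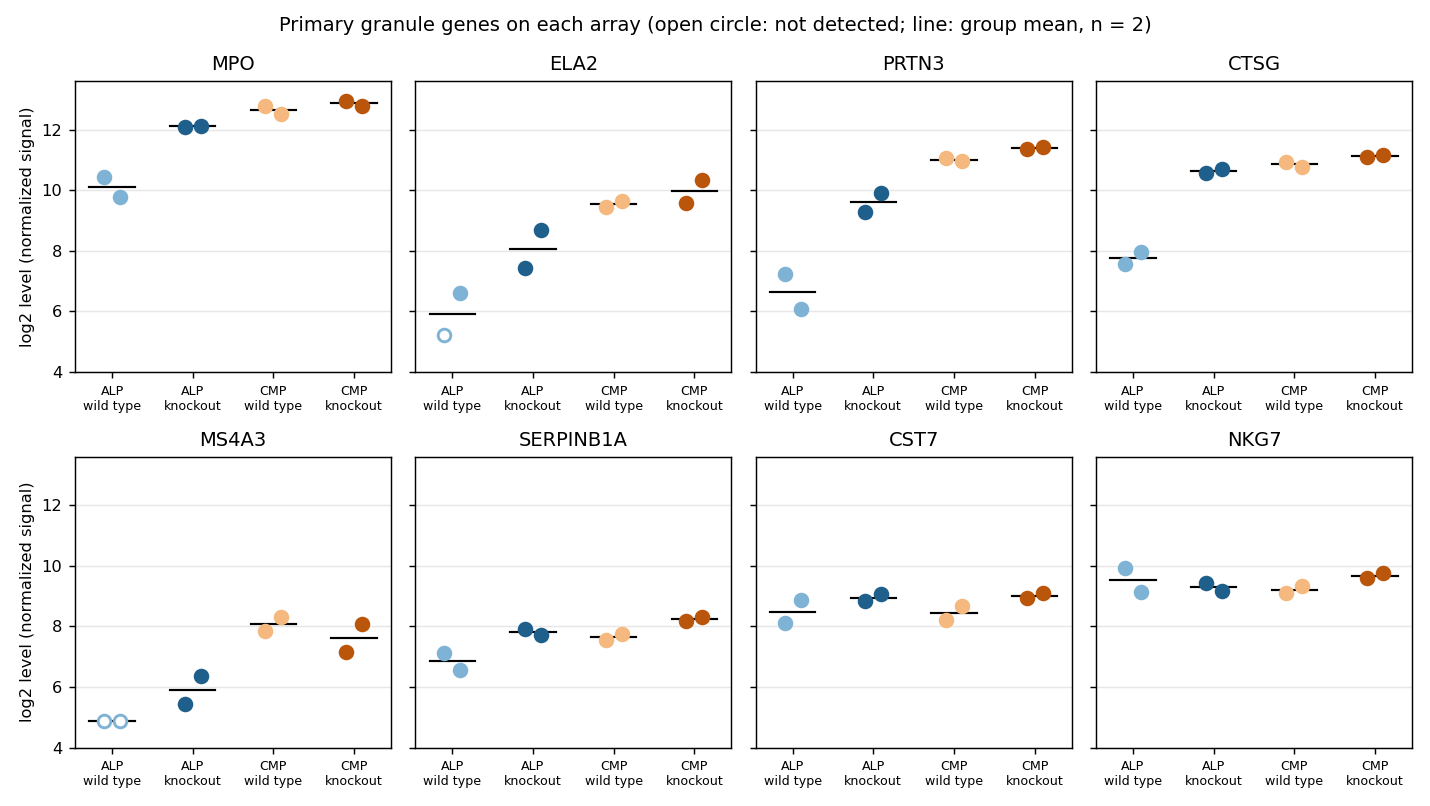
Log2 level (vertical axis, normalized signal) of each of the 8 members on each array, by cell type and genotype (horizontal axis); circles are arrays, open circles are arrays on which the probe was not detected, and lines are means of 2 arrays. The wild-type ALP arrays are the lowest for MPO, ELA2, PRTN3, CTSG, MS4A3 and SERPINB1A, while CST7 and NKG7 stay within 8.1 to 9.93 on all 8 arrays.

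Myeloperoxidase, the enzyme that makes hypochlorous acid and the most abundant protein of the primary granule, gave the following log2 levels for MPO. They were 10.42 and 9.76 on the wild-type ALP arrays, 12.09 and 12.13 on those of knockout ALP, 12.76 and 12.5 for wild-type CMP and 12.93 and 12.79 for knockout CMP, with background-corrected and quantile-normalized signals. The transcript was thus detected in every group, was lowest in wild-type ALP, and lay higher on both knockout ALP arrays than on either wild-type ALP array. The difference in ALP was 2.02 (SE 0.31), or 4.06-fold, with an adjusted p of 0.0746 by limma over all 10401 features, just outside the threshold of 0.05. In CMP the knockout arrays also lay above the wild-type arrays, by 0.23 (SE 0.31, adjusted p = 0.969). The array holds 2 further MPO probes. Tested with every probe by itself, they differed by 1.31 (SE 0.3, adjusted p = 0.159) and 1.39 (SE 0.29, adjusted p = 0.131) in ALP, and the brightest probe by 2.02 (adjusted p = 0.0831), so all 3 had the same direction and none passed.

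Neutrophil elastase, a serine protease that cleaves matrix proteins and bacterial proteins, was represented by ELA2. Its log2 level was 5.23 and 6.61 on the wild-type ALP arrays, 7.42 and 8.68 on those of knockout ALP, 9.44 and 9.63 for wild-type CMP and 9.58 and 10.35 for knockout CMP. The first of the wild-type ALP arrays did not detect it. The ALP groups did not overlap, yet in each of them the 2 arrays differed by more than 1 log2 unit. The ALP difference of 2.13 (SE 0.58) did not pass (adjusted p = 0.206, limma). In CMP the groups overlapped, with a difference of 0.43 (SE 0.58, adjusted p = 0.969).

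Proteinase 3, a related serine protease and the best-known target of neutrophil autoantibodies in humans, was represented by PRTN3. Its log2 level was 7.22 and 6.09 on the wild-type ALP arrays, 9.29 and 9.91 on those of knockout ALP, 11.06 and 10.96 for wild-type CMP and 11.37 and 11.41 for knockout CMP. It had the largest ALP difference of the 8 members, 2.95 (SE 0.41) or 7.7-fold, with non-overlapping groups and an adjusted p of 0.0543 by limma, which did not pass. The CMP difference was 0.39 (SE 0.41, adjusted p = 0.965), and the knockout CMP arrays lay above the wild-type ones.

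Cathepsin G, the chymotrypsin-like protease of the granule, was the member that passed in ALP. CTSG stood at 7.56 and 7.96 on the wild-type ALP arrays, 10.58 and 10.71 on those of knockout ALP, 10.94 and 10.76 for wild-type CMP and 11.08 and 11.15 for knockout CMP. The wild-type ALP arrays were set apart from the 6 others, and knockout ALP lay just below wild-type CMP. CTSG rose by 2.88 (SE 0.27), or 7.39-fold, in knockout ALP (adjusted p = 0.0211, limma) and ranked 3 by p among all features. In CMP its difference was 0.27 (SE 0.27, adjusted p = 0.965). Averaged over both cell types the knockout effect of CTSG was 1.58 (SE 0.19, adjusted p = 0.0433), the average of 2.88 in ALP and 0.27 in CMP.

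MS4A3 encodes a membrane protein found in granulocyte and monocyte progenitors and in basophils, and is not a granule constituent. It was detected on neither wild-type ALP array, where its level was 4.87 and 4.89. On the knockout ALP arrays it was 5.45 and 6.36, for wild-type CMP 7.85 and 8.31, and for knockout CMP 7.16 and 8.07. Its transcript was thus detected on both arrays of knockout ALP and of each CMP group, and the CMP groups overlapped. On the first knockout ALP array the detection was narrow, at 5.45 where the lowest detected signal of that array was 5.44. This level was also below the lowest detected signals of the wild-type ALP arrays, 5.47 and 5.72. The fold that follows therefore rests mainly on the second knockout ALP array. Knockout ALP were at least 1.24-fold above wild-type ALP, taken against the lowest detected signal of the wild-type ALP arrays, with a fitted difference of 1.03 (SE 0.43, adjusted p = 0.364, limma). In CMP the difference was -0.46 (SE 0.43, adjusted p = 0.961), the one negative CMP value among the members. A second MS4A3 probe was detected on neither wild-type ALP array and on 1 of the knockout ALP arrays, with an ALP difference of 0.24 (SE 0.52, adjusted p = 0.882 with every probe by itself).

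SERPINB1A encodes a cytoplasmic serpin that inhibits elastase, proteinase 3 and cathepsin G. It stood at 7.11 and 6.58 on the wild-type ALP arrays, 7.91 and 7.73 on those of knockout ALP, 7.56 and 7.74 for wild-type CMP and 8.19 and 8.3 for knockout CMP. Within each cell type the knockout arrays were the higher pair. The difference was 0.97 in ALP (SE 0.29, adjusted p = 0.231, limma), and in CMP it was 0.6 with the same SE (adjusted p = 0.909), so neither passed.

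CST7 encodes cystatin F, an inhibitor of cysteine cathepsins, cathepsin C among them, that is made by cytotoxic and myeloid cells. Its level was 8.1 and 8.87 on the wild-type ALP arrays, 8.83 and 9.06 on those of knockout ALP, 8.23 and 8.67 for wild-type CMP and 8.94 and 9.1 for knockout CMP. The ALP groups overlapped, with a difference of 0.46 (SE 0.34, adjusted p = 0.613, limma). The CMP groups did not, with a difference of 0.56 (SE 0.34, adjusted p = 0.928). Wild-type CMP minus wild-type ALP was -0.03 (SE 0.34, 95% interval -0.84 to 0.77).

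NKG7 encodes a membrane protein of the cytotoxic granules of natural killer and T cells. It stood at 9.93 and 9.15 on the wild-type ALP arrays, 9.45 and 9.17 on those of knockout ALP, 9.09 and 9.32 for wild-type CMP and 9.61 and 9.75 for knockout CMP. It was the only member with a negative ALP value, -0.23 (SE 0.33, adjusted p = 0.804, limma), and the ALP groups overlapped. In CMP the difference was 0.47 (SE 0.33, adjusted p = 0.951), and the groups did not overlap. Of 18 cytotoxic lymphocyte markers on the array, 10 were detected on no array, including Gzmb, Gzmk, Ncr1, Tbx21, Eomes and Cd3d. Over the 6 of these markers that were tested, the mean log2 level ranged from 6.4 to 6.88 on the wild-type ALP arrays, 6.42 to 6.58 in knockout ALP, 5.76 to 5.77 in wild-type CMP and 5.67 to 6.21 in knockout CMP. The part of such cells in the NKG7 level was not tested.

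Across the 8 members, 1 passed as higher in knockout ALP and none as lower, where 17 features (0.163%) passed as higher and 8 as lower among all 10401. The groups did not overlap, with the knockout higher, for 6 of 8 members, against 22% of all features. The median member difference was 1.53, against 0.008 over all features, and 6 members had an unadjusted p under 0.05, as did 1389 of all 10401 features. In CMP none of the 8 members passed by limma, and 0 had an unadjusted p under 0.05, where 1 feature (0.00961%) passed as higher, 9 passed as lower and 588 had an unadjusted p under 0.05. There the knockout arrays lay above the wild-type arrays for 6 members, against 19.8% of all features, and the median difference was 0.41 against -0.004. The CMP differences of the 4 enzymes, 0.23 to 0.43, were small beside their ALP differences of 2.02 to 2.95. The members were chosen with earlier results of these data known. Their counts and medians beside all features, here and in the comparisons below, are thus a description and no test of the set. In a bulk sample, fewer cells with a transcript and less of it per cell cannot be told apart.

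**Figure D2:**
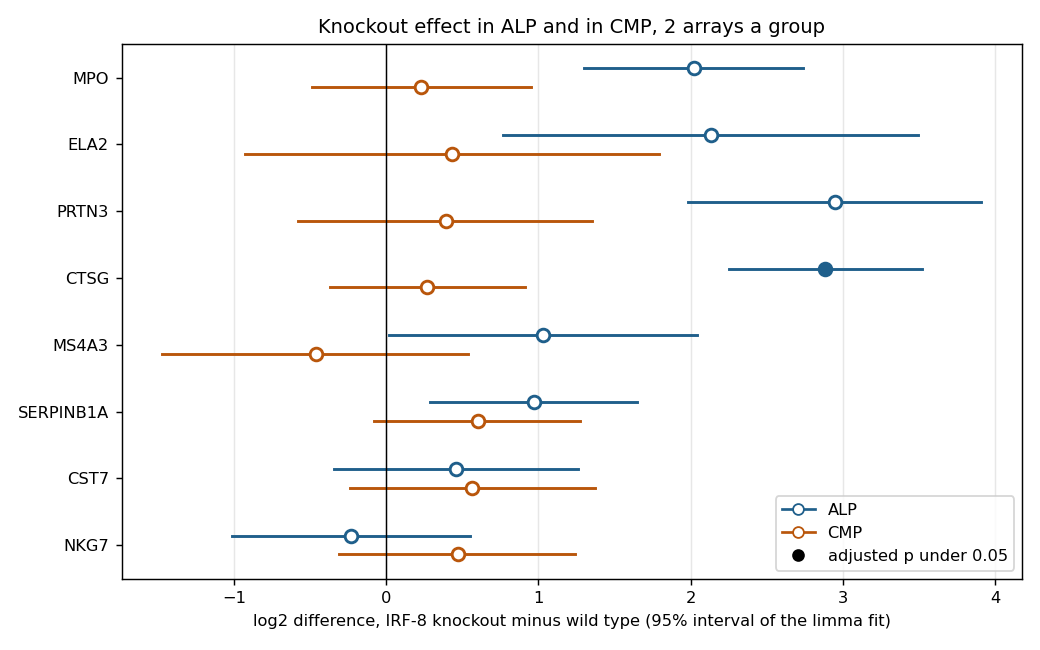
Log2 difference between knockout and wild type (horizontal axis) for each member (vertical axis) in ALP and CMP, with 95% intervals of the limma fit; filled circles passed the threshold. CTSG in ALP, at 2.88, is the one filled circle, and the ALP intervals of MPO, ELA2, PRTN3, CTSG, MS4A3 and SERPINB1A lie above 0, while every CMP interval includes 0.

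The difference between the ALP and CMP effects was tested directly. It was 2.61 (SE 0.39, 95% interval 1.71 to 3.52) for CTSG, 2.56 (SE 0.59, 1.19 to 3.93) for PRTN3 and 1.79 (SE 0.44, 0.77 to 2.82) for MPO. These intervals are not adjusted for the number of features, and the adjusted p by limma was 0.142 for CTSG, 0.382 for PRTN3 and 0.443 for MPO. ELA2 differed by 1.7 (SE 0.82, adjusted p = 0.731) and MS4A3 by 1.49 (SE 0.61, adjusted p = 0.683). The other members had values of 0.38 for SERPINB1A, -0.1 for CST7 and -0.7 for NKG7. No member passed this test, in which 1 of all features (0.00961%) passed and 738 had an unadjusted p under 0.05, as did 4 members. An effect confined to ALP was therefore not shown. For the mean effect over both cell types, 13 features (0.125%) passed as higher, CTSG being the 1 member among them. The mean effects of the other members ran from 0.12 for NKG7 to 1.67 for PRTN3 (adjusted p = 0.874 and 0.092).

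Between the wild-type cell types, 5 members rose from ALP to CMP, namely MPO, ELA2, PRTN3, CTSG and MS4A3, whereas 0.875% of all features passed as higher. PRTN3 had the widest gap, 4.35 on the log2 scale (SE 0.41, 20.4-fold, adjusted p = 0.00679, limma). ELA2 was 3.61 higher (SE 0.58, 12.2-fold, adjusted p = 0.0314) and CTSG 3.09 higher (SE 0.27, 8.49-fold, adjusted p = 0.00524). MPO, which was already well detected in wild-type ALP, was 2.54 higher (SE 0.31, 5.81-fold, adjusted p = 0.0122). Of its other probes, 1 was 1.98 higher and passed (adjusted p = 0.0207) and 1 was 1.57 higher and did not (adjusted p = 0.0586, every probe by itself). MS4A3 was at least 5.59-fold higher, with a fitted difference of 3.2 (SE 0.43, adjusted p = 0.0161), and 2.25 on its second probe (SE 0.52, adjusted p = 0.0953). SERPINB1A was at 0.8 (SE 0.29, adjusted p = 0.259), CST7 at -0.03 and NKG7 at -0.33, and none of these passed. Without overlap, the CMP arrays lay above the ALP arrays for 6 members, against 23.5% of all features, and the median was 2.81 against 0.02.

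The same gap was narrower in the knockout. CMP minus ALP was 1.91 (SE 0.58, adjusted p = 0.556, limma) for ELA2, 1.79 (SE 0.41, 0.313) for PRTN3, 1.7 (SE 0.43, 0.386) for MS4A3, 0.74 (SE 0.31, 0.834) for MPO and 0.47 (SE 0.27, 0.915) for CTSG. None of the members passed, and 0 of all 10401 features (0%) passed as higher, although 612 had an unadjusted p under 0.05, among them 4 members. The CMP arrays lay above the ALP arrays for 7 of 8 members, against 19.8% of all features. The change of this gap with genotype is the same quantity as the difference between the ALP and CMP effects given above, which no member passed.

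**Figure D3:**
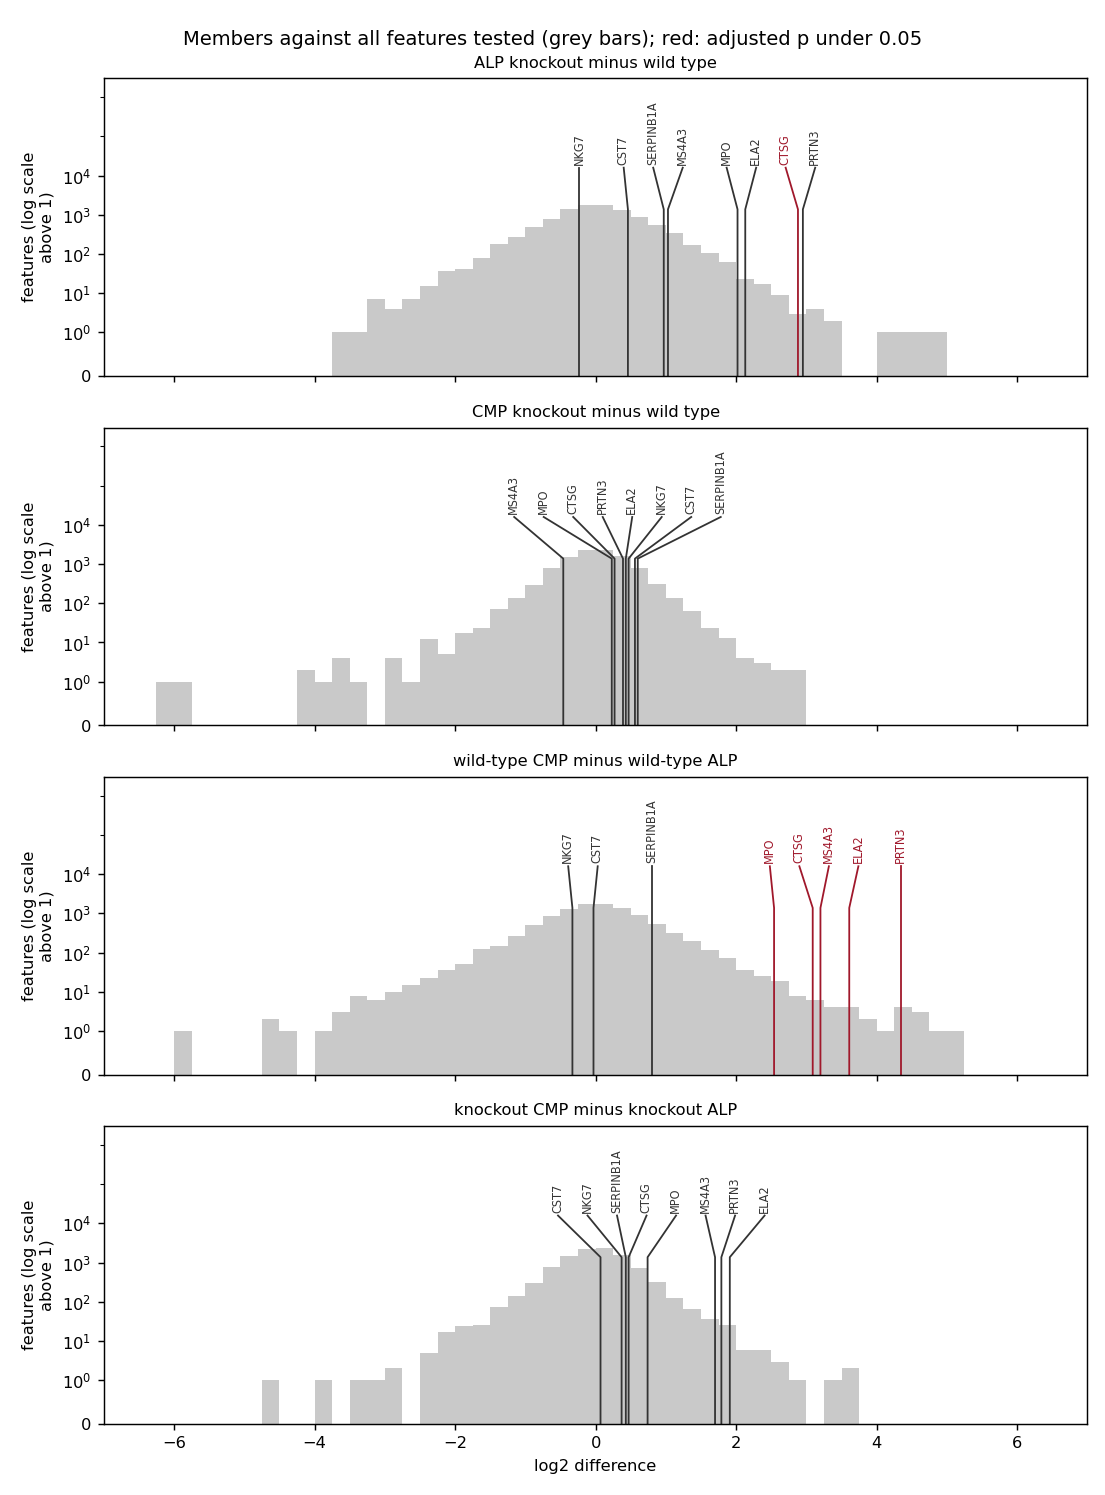
Number of features (vertical axis, log scale above 1) by log2 difference (horizontal axis, bins of 0.25) in 4 comparisons, with the members as lines, red where they passed. In knockout ALP the 4 enzymes lie at 2.02 to 2.95, in knockout CMP all members lie between -0.46 and 0.6, and between the wild-type cell types 5 members lie at 2.54 or above.

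The order of the group means was the same for MPO, ELA2, PRTN3 and CTSG: wild-type ALP lowest, then knockout ALP, then wild-type CMP, then knockout CMP. The arrays of wild-type and knockout CMP overlapped for ELA2 but not for the others, and the difference between these neighbours passed for none of the 4. Knockout ALP and wild-type CMP were not tested against each other. Of the 4 enzymes CTSG had the closest pair, 10.65 ± 0.09 against 10.85 ± 0.13 (SD, n = 2), a ratio of 1.15-fold. MPO stood at 12.11 ± 0.03 against 12.63 ± 0.18, a ratio of 1.43-fold. PRTN3 was 2.65-fold and ELA2 2.8-fold higher in wild-type CMP than in knockout ALP, and MS4A3 was 4.49-fold higher. Among these 5 genes the level of knockout ALP thus came nearest to that of wild-type CMP for CTSG and stayed farthest below it for MS4A3. For SERPINB1A, CST7 and NKG7, which did not pass between the wild-type cell types, knockout ALP was the higher of the pair, by 1.12-fold, 1.41-fold and 1.07-fold. For MS4A3 wild-type CMP was the highest group, and for SERPINB1A, CST7 and NKG7 knockout CMP was, with all 4 group means of each of these last 3 within a range of 6.85 to 8.25, 8.45 to 9.02 and 9.21 to 9.68.

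To compare the members' patterns, each profile over the 8 arrays was centred on its own mean and compared by the root mean square distance in log2 units. The distances among the 4 enzymes ran from 0.41 between MPO and CTSG to 0.86 between MPO and ELA2, and MS4A3 lay 0.64 to 0.89 from each of them. SERPINB1A, CST7 and NKG7 were 0.48 to 0.53 apart. The patterns were not cleanly separated, since MPO lay nearer to SERPINB1A, at 0.66, than to PRTN3, at 0.81, or ELA2. CST7 and NKG7 lay 1.38 and 1.53 from the mean profile of the 4 enzymes, close to the median distance of 1.51 over 9919 named genes. SERPINB1A lay 1.03 from that mean. These distances describe 8 arrays that share groups, so they reflect group differences and array noise alike.

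Outside the members, the named genes with profiles nearest to the enzyme mean were F13a1 (distance 0.377), Ppic (0.408), Ccl9 (0.425), Muc13 (0.442), Anxa3 (0.524), Anxa2 (0.554), Mcpt8 (0.562) and Gstt3 (0.564). They were picked for this likeness, and the enzyme mean was itself higher in knockout than in wild-type ALP. A rise of these genes in knockout ALP was thus built into the choice, and their adjusted p-values are no separate evidence. F13a1, the coagulation factor XIII A chain of monocytes and platelets, stood at 5.09 and 5.82 in wild-type ALP and at 8.24 and 9.13 in knockout ALP, and rose by 3.23 (SE 0.42, adjusted p = 0.0462, limma). Ccl9, a chemokine of myeloid cells, rose by 3.33 in ALP (SE 0.36, adjusted p = 0.0352) and was the nearest gene to PRTN3 at 0.279. Gstt3, a glutathione transferase, rose by 2.36 in ALP (adjusted p = 0.0462) and was the nearest gene to both MPO (0.295) and CTSG (0.411). Mcpt8, a basophil protease gene that neighbours CTSG on chromosome 14, had an ALP value of 1.37 (adjusted p = 0.107). The nearest gene to MS4A3 was Hdc, the histidine decarboxylase of basophils and mast cells, at 0.249. Wdr74, Ppm1a and Qtrt1 were the nearest to SERPINB1A, CST7 and NKG7, at 0.133, 0.112 and 0.091.

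**Figure D4:**
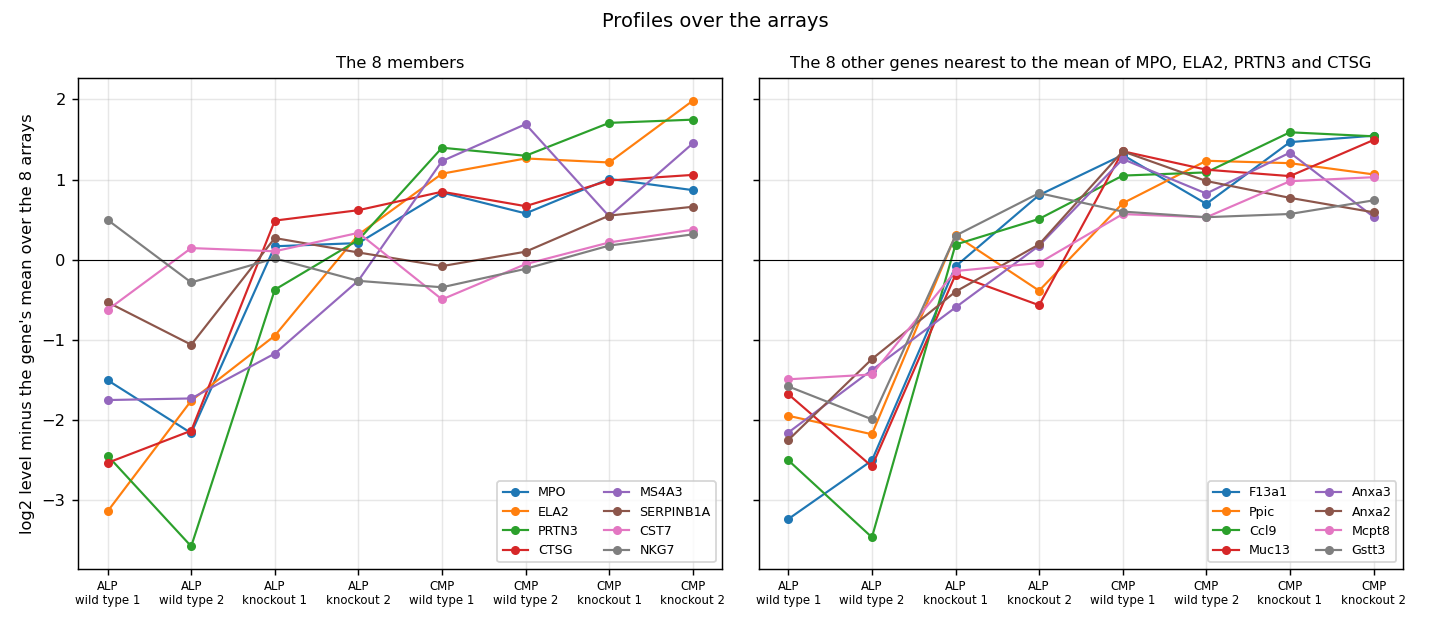
Log2 level minus the gene's mean over the 8 arrays (vertical axis) on each array (horizontal axis), for the 8 members and for the 8 other named genes nearest to the mean of MPO, ELA2, PRTN3 and CTSG; lines only join the points of a gene. In the left panel the 4 enzymes, MS4A3 and SERPINB1A are lowest on the wild-type ALP arrays while CST7 and NKG7 are nearly level, and the genes in the right panel, at distances of 0.377 to 0.564, were chosen for their likeness.

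PRTN3, ELA2 and Cfd, the gene of complement factor D, lie in a row on chromosome 10 in the RefSeq annotation (GRCm38.p6). The ALP values of PRTN3 and ELA2 were 2.95 and 2.13, and those of Cfd were 0.01 in ALP (adjusted p = 0.992, limma) and -0.05 in CMP (adjusted p = 0.993). MPO lies between Tspoap1 and Lpo, the gene of the related enzyme lactoperoxidase, on chromosome 11. Tspoap1 was at 2.36 in ALP (adjusted p = 0.129) and Lpo at 0.57 (adjusted p = 0.694), and neither passed.

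Further genes of granule cargo, protease processing and lysosomal partners were followed as a list, of which 18 of 20 were tested. In knockout ALP 2 of the 18 rose and none fell, where 17 of all 10401 features (0.163%) passed as higher. Both genes were already known to move in these data when the list was made, so this count is no test of the list. They were Hpse, the endoglycosidase heparanase, by 2.69 (SE 0.26, adjusted p = 0.0211, limma), and Rab44, a Rab family GTPase, by 4.87 (SE 0.61, adjusted p = 0.0422). Hpse went from 5.84 and 5.73 to 8.62 and 8.33, and Rab44 from 6.95 and 4.84 to 10.73 and 10.8, with 1 wild-type ALP array not detecting Rab44. The median of this list was 0.22, against 1.53 for the members and 0.008 for all features. None of the 18 passed in CMP, where 1 had an unadjusted p under 0.05. Between the wild-type cell types 3 rose, Hpse, Rab44 and Cd63, a tetraspanin of the primary granule membrane (2.47, SE 0.31, adjusted p = 0.0137).

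Genes of the secondary and tertiary granules, which form later, were mostly below detection: 11 of the 27 on the array were tested. None passed in knockout ALP or knockout CMP by limma, with 1 at an unadjusted p under 0.05 in each, and the medians were 0.22 and 0.09. The smallest p values were those of Fpr2 in ALP, at -1.41 (at least 1.94-fold lower, adjusted p = 0.231), and of Mmp8, neutrophil collagenase, in CMP, at 1.69 (at least 2.02-fold higher, adjusted p = 0.264). Mmp8 stood at 4.89 and 4.84 in wild-type CMP, where neither array detected it, and at 6.81 and 6.3 in knockout CMP. Pglyrp1, a peptidoglycan recognition protein, rose from wild-type ALP to wild-type CMP (at least 2.72-fold, fitted log2 2.02, SE 0.32, adjusted p = 0.0281).

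Among 14 tested receptors for granulocyte and monocyte growth factors and related surface molecules, none passed in either knockout comparison, with 2 at an unadjusted p under 0.05 in each and medians of -0.05 in ALP and -0.32 in CMP. Csf3r, the G-CSF receptor, was detected on neither wild-type ALP array (5.13 and 5.15) and on both knockout ALP arrays (7.8 and 6.18), at least 2.64-fold higher, with a fitted difference of 1.85 (SE 0.51, adjusted p = 0.21). Csf1r, the M-CSF receptor, was at 0.86 in knockout ALP (adjusted p = 0.354) and -0.9 in knockout CMP (adjusted p = 0.82). Il6ra, a chain of the IL-6 receptor, had the smallest p of the list in knockout CMP, at -1.31 (SE 0.33, adjusted p = 0.475). Of 27 tested transcription factors of granulopoiesis, none passed in knockout ALP, with 5 at an unadjusted p under 0.05 and a median of 0.04. The smallest p values were those of Egr1, Mycn and Spi1, of which the first 2 were lower in the knockout. Egr1, an immediate early zinc finger factor, was at 11.8 and 11.82 in wild-type ALP and 10.21 and 9.91 in knockout ALP (-1.75, SE 0.33, adjusted p = 0.12). Mycn, a factor of the MYC family, was at 6.78 and 7 in wild-type ALP and 5.37 and 5.84 in knockout ALP (-1.28, SE 0.29, adjusted p = 0.159). Spi1, the gene of PU.1, was at 7.32 and 6.47 in wild-type ALP and 8.33 and 8.53 in knockout ALP (1.53, SE 0.36, adjusted p = 0.168), and rose from wild-type ALP to wild-type CMP (1.98, SE 0.36, adjusted p = 0.0482). In knockout CMP 1 factor passed, Id2, an inhibitor of helix-loop-helix factors, which fell by 4.13 (log2 -4.13, SE 0.36, adjusted p = 0.00856).

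Markers of other cells that the sorts could hold also moved. Of 12 tested monocyte and macrophage markers, 2 rose in knockout ALP (F13a1 and Ccl9), where 0.163% of all features passed as higher. There 1 marker fell, Ly86 (at least 7.82-fold, fitted log2 -3.55, SE 0.3, adjusted p = 0.0211, limma). F13a1, Ccl9 and Ly86 were already known to move in these data when the list was made. Fcgr1, Mrc1, Spic and Vcan were detected on no array. In knockout CMP none of the 12 rose and 2 fell, Ly86 (at least 8.7-fold, fitted log2 -3.58, SE 0.3, adjusted p = 0.00856) and Lgals3, the gene of galectin-3 (at least 4.35-fold, fitted log2 -2.79, SE 0.26, adjusted p = 0.0129). From wild-type ALP to wild-type CMP 6 of the 12 rose and none fell, where 0.875% of all features passed as higher. The mean level of the 12 was 6.03 to 6.12 on the wild-type ALP arrays, 6.41 to 6.67 in knockout ALP, 7.86 to 7.88 in wild-type CMP and 6.94 in knockout CMP. Of 4 tested mast cell, basophil and eosinophil markers none passed in knockout ALP. From wild-type ALP to wild-type CMP 3 of these 4 rose, Mcpt8, Hdc and Gata2, against the same 0.875% of all features. Their mean level was 5.62 to 6.74 in wild-type ALP, 6.17 to 6.58 in knockout ALP, 8.12 to 8.64 in wild-type CMP and 8.1 to 8.86 in knockout CMP, and Ms4a2, Fcer1a, Prg2 and 6 others of the list were detected nowhere. Of 9 tested B and T lymphoid markers 1 rose in knockout ALP, Vpreb1, a component of the pre-B-cell receptor (at least 6.67-fold, fitted log2 2.96, SE 0.4, adjusted p = 0.0493), and 4 fell from wild-type ALP to wild-type CMP (Il7r, Rag1, Ly6d and Dntt). Megakaryocyte and erythroid markers were uneven within wild-type CMP, with 5 detected and a mean of 6.44 on 1 array and 10 detected and a mean of 8.34 on the other. On the same arrays the SD of the members ran from 0.07 for PRTN3 to 0.32 for MS4A3 (n = 2). None of 9 tested passed in any of these comparisons. Of 12 tested dendritic cell markers none passed in knockout ALP, and 3 fell in knockout CMP: H2-Aa, H2-Eb1 and Cd74. From wild-type ALP to wild-type CMP 5 of these 12 markers rose and none fell. Their mean level was 7.27 to 7.42 in wild-type ALP, 7.03 to 7.16 in knockout ALP, 8.36 to 8.42 in wild-type CMP and 6.58 to 6.83 in knockout CMP. Of 13 tested stem and multipotent progenitor markers none passed in either knockout comparison, and 1 rose and 2 fell from wild-type ALP to wild-type CMP. The part of any of these cells in the members' values was not tested.

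The ALP difference of CTSG ranged from 2.23 to 3.09 over 20 other settings, but its call was not kept in all of them. It was lost in the fit of the 4 ALP arrays alone (adjusted p = 0.407, limma) and without either knockout ALP array (adjusted p = 0.23 and 0.236) or any 1 of the CMP arrays (adjusted p = 0.102 to 0.105). Without the first wild-type ALP array, the ALP differences of MPO, PRTN3 and CTSG were 2.35, 3.51 and 2.68. That fit rests on the second wild-type ALP array alone. This second array had the lowest mean correlation with the other arrays, 0.835 against 0.894 for the first, and the fewest detected probes (11122). In the wild-type comparison all 5 calls were lost without either wild-type CMP array. The ALP differences of every member but NKG7 were above 0 in all 20 settings, but their sizes moved, down to 0.08 for CST7. That of NKG7 ran from -0.62 to 0.16. With no background correction the ALP differences were 1.84 for PRTN3, 0.99 for ELA2, 0.38 for MS4A3 and 0.49 for SERPINB1A, and the median over the members was 0.736 in place of 1.53. Without the first wild-type or the second knockout ALP array, ELA2 was at 1.44 or 1.49. In the wild-type comparison no background correction gave 3.08 for PRTN3, 2.04 for ELA2 and 1.36 for MS4A3, all still called.

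**Figure D5:**
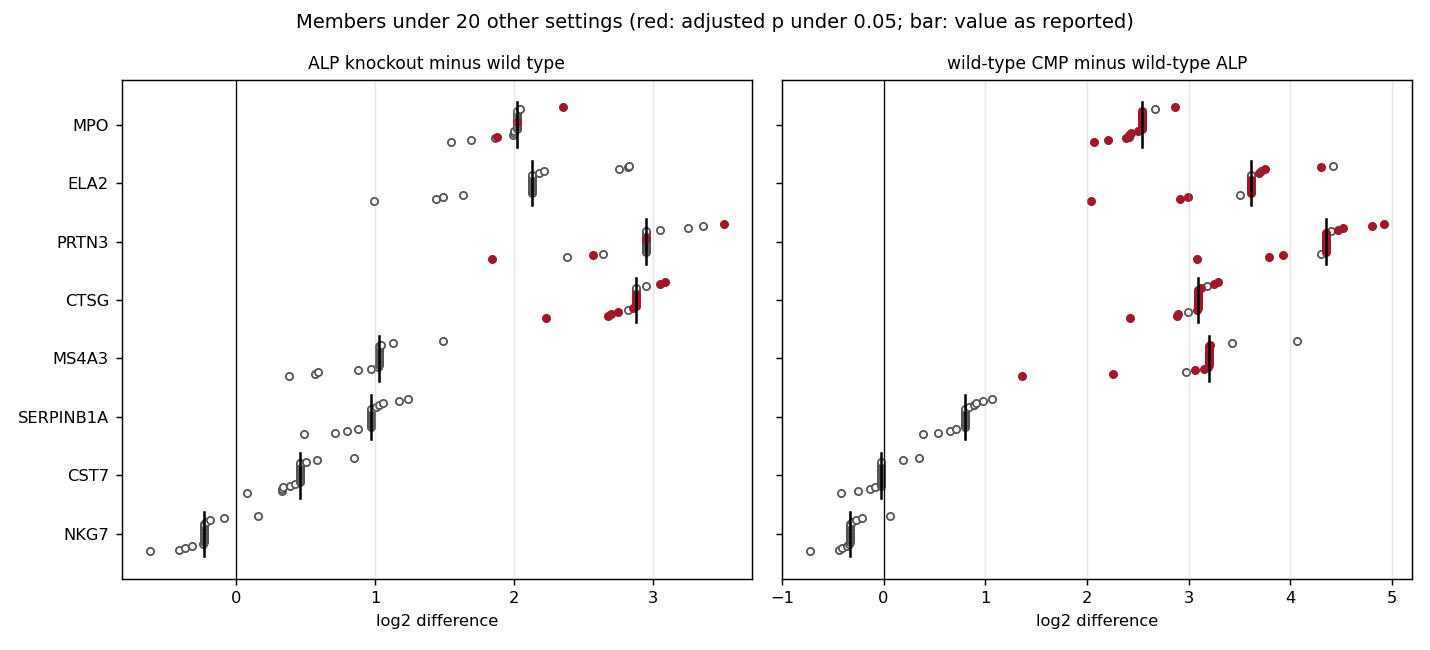
Log2 difference (horizontal axis) of each member (vertical axis) under 20 other settings, for knockout against wild-type ALP and for wild-type CMP against wild-type ALP; red points passed an adjusted p of 0.05 and black bars are the values as reported. Other thresholds are not among the settings. For knockout ALP, CTSG passed in 12 of the 20, PRTN3 in 4 and MPO in 3, and ELA2 in 0.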

How the data were processed

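RNA of 8 samples in 4 groups of 2 arrays was measured on bead arrays, 1 array a sample. Linear signal intensity for every probe is in the deposited scanner table, apparently not normalized. That deposited table also lists a detection p-value for each signal, and 1 of the 8 detection columns names no replicate number and was taken for the remaining wild-type CMP array. The authors deposited log2 values per gene as well, which their values show to be quantile normalized, with several probes of a gene combined by median polish.

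Gene names are held by the gene table alone. Scanner probes were named by matching their ranks over the arrays with the values of the gene table, which linked 17924 of 18132 genes (98.9%), 13046 of them to 1 probe, within 0.003 on the log2 scale. Of 2000 genes with shuffled values 0 were linked to 1 probe, and of 200 with shuffled values 0 to a pair. Names were brought to current symbols with a RefSeq table (GRCm38.p6), where 14305 were current and 2905 were synonyms, and 922 were kept. All 8 members were linked, MPO to 3 probes, MS4A3 to 2 and the others to 1.

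Background correction from the detection p-values (neqc, offset 16), quantile normalization and log2 followed, in limma 3.58.1 (R 4.3.3). A probe was kept if 2 or more arrays had a detection p below 0.05 (14280 probes), and the brightest probe stood for its gene, which left 10401 features. One limma model of the 4 group means used all 8 arrays, with 4 residual degrees of freedom and 3.45 from the prior. The Benjamini-Hochberg adjustment ran over all features within each of 6 comparisons, at 0.05. Where a group was detected on none of its arrays, a fold was taken against the lowest detected signal of those arrays. Levels of different probes are not compared. Precision is limited by 2 arrays a group. Correlations of same-numbered deviations ran from -0.1 to 0.08, which gave no sign that replicate numbers pair the samples. With 2 arrays a group, such correlations cannot show that the samples were unpaired. Other steps used Python 3.11.15 (numpy 2.4.6, scipy 1.17.1, pandas 2.3.3), and plots matplotlib 3.10.9. The method was tested on simulated data.

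The members and the gene lists were chosen with earlier results of these data known, and lists such as granule cargo and monocyte markers hold genes, among them Rab44, Hpse, F13a1, Ccl9 and Ly86, that were known to move. Named genes are all members, the genes of a list that passed where at most 5 did and otherwise up to 4 each way, up to 3 of smallest p where none passed, and the nearest profiles. Alternatives were no background correction, offset 50, median scaling, cyclic loess, the authors' gene table, no filter, a stricter filter, single probes, fits of only the 4 arrays compared, intensity trend with robust fitting, array weights, other thresholds, a replicate block and leaving out each array.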

Additional observations from a re-analysis of the deposited data

How the results depend on the processing

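Counts of members called were compared over the alternatives, none of which turned the direction of a called value. The median member difference moved most with no background correction, going from 1.53 to 0.736 in knockout ALP and from 2.81 to 1.7 between the wild-type cell types. In knockout ALP, where 1 member (CTSG) was called, the count was 3 with no background correction, with intensity trend and robust fitting and at a threshold of 0.1, 2 with an offset of 50, and 0 with the 4 ALP arrays alone and at a threshold of 0.01. For the mean knockout effect, with 1 called, it was 3 with no background correction and with trend and robust fitting, 2 at a threshold of 0.1, and 0 with median scaling and at 0.01. For the difference of the knockout effects, with 0 called (limma, 4 members at an unadjusted p under 0.05), it was 1 with no background correction and with trend and robust fitting. Between the wild-type cell types, with 5 called, it was 3 in the authors' gene table, 2 at a threshold of 0.01 and 0 with the 4 arrays alone. Leaving out 1 array gave 0 to 3 in knockout ALP, 0 to 3 for the mean effect, 0 to 1 for the difference and 0 to 5 between the wild-type cell types, and in such a fit the lone array is assumed to vary like the other groups. Knockout CMP, and knockout CMP against knockout ALP, gave 0 members throughout. The replicate block gave 0 called in knockout ALP (CTSG adjusted p = 0.0766, limma), 0 for the mean effect and 5 between the wild-type cell types. Whether the replicate numbers pair the samples is not known. Over all features the ALP comparison gave 25 calls in the reported fit, 847 without wild-type ALP array 1, 24 without array 2, and 0 without any other array, with the replicate block and with the 4 arrays alone. The wild-type comparison gave 166 calls, 1087 without wild-type ALP array 1, 90 with array weights and 0 without either wild-type CMP array. The cause of these shifts was not tested. A slide block was not run, because no slide is given. ELA2 and MS4A3 lay near or below detection in wild-type ALP, which limits their folds.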

Other observations

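Groups of genes that share a name with members were followed as well, as values with no explanation. Of 13 other cathepsins and dipeptidases tested, 1 fell in knockout CMP and none passed in knockout ALP (limma, 7 at an unadjusted p under 0.05). The gene that fell was Ctsh, a lysosomal cysteine protease, which went from 8.48 and 8.58 to 4.79 and 4.91 (at least 8.27-fold lower, fitted log2 difference -3.68, SE 0.28, adjusted p = 0.0068) and was not detected on any knockout array of either cell type. Its value in knockout ALP was -1.7 (at least 2.6-fold lower, adjusted p = 0.0821), opposite in sign to that of CTSG. CTSG shares the name cathepsin but is not a cysteine protease. Ctsh and Ctsz, a lysosomal carboxypeptidase, rose from wild-type ALP to wild-type CMP by 1.73 and 1.91 (adjusted p = 0.0303 and 0.0332).

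Of 7 other serpins and cystatins tested, none passed in either knockout comparison (limma, 0 at an unadjusted p under 0.05 in ALP and 1 in CMP). Cst3, the secreted cysteine protease inhibitor cystatin C, stood at 12.09 and 11.98 in wild-type CMP and at 11.14 and 11.18 in knockout CMP (-0.87, adjusted p = 0.577). Serpina3g and Serpinf1 rose from wild-type ALP to wild-type CMP by fitted log2 values of 2.45 (at least 3.85-fold) and 1.75 (adjusted p = 0.00931 and 0.0382). Of 4 other genes of the MS4A family tested, Ms4a6c rose between the same groups (at least 3.45-fold, fitted log2 2.42, adjusted p = 0.0105) and had a knockout value of -1.89 in CMP (adjusted p = 0.0947) and 0.17 in ALP (adjusted p = 0.836).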
